A study of Homo sapiens with 12 samples.

Results

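The nuclear genes that encode the respiratory chain and ATP synthase were followed in HEL cells, a human leukaemia line with erythroid and megakaryocytic features that carries the JAK2V617F mutation. Genes were taken by symbol: every gene with a single symbol in the array's annotation beginning NDUFA, NDUFB, NDUFC, NDUFS, NDUFV, UQCR, ATP5, or COX plus a digit, and SDHA, SDHC, SDHD and CYC1. The rule took 82 of the 11940 genes with a value. Of these, 70 encode subunits: 31 of complex I, 3 of complex II, 8 of complex III, 12 of complex IV and 16 of ATP synthase. The symbols also took 10 assembly factors, the inhibitor ATP5IF1 and the pseudogene ATP5MC2P1. SDHB, UQCRFS1 and the subunits encoded by mitochondrial DNA were not analysed here.

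Complexes I and II feed electrons from NADH and succinate into ubiquinone, complex III passes them to cytochrome c, and complex IV passes them to oxygen. Complexes I, III and IV pump protons across the inner mitochondrial membrane, and ATP synthase uses the proton gradient to make ATP. Nearly all of the subunits are encoded in the nucleus, and transcription factors such as NRF1, the ETS factor GABP and YY1 are known to bind many of these promoters. JAK2 is the kinase below the erythropoietin and thrombopoietin receptors, and the V617F change keeps it active without a ligand.

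Cells of this single line were transduced with lentiviruses in a puromycin-selectable pLKO vector. The JAK2 hairpins Jak2-9 and Jak2-10 were set against 2 controls, a luciferase hairpin (Luc) and GFP, which the labels name both as a vector control and as a control hairpin. All cells carry the mutation, and each group had 3 arrays. The labels do not say whether replicates were separate cultures, so the p-values measure the spread between arrays, which may be technical. The arrays read bulk RNA, in which fewer expressing cells and less RNA per cell cannot be told apart.

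Values are log2 intensities of the brightest probe set of each gene. Array medians lay between 6.16 and 6.34. The 8 erythroid and 5 megakaryocytic markers measured all lay above the array medians, and the 9 markers of T, B, myeloid, fibroblast and epithelial cells lay below them, at 4.29 to 5.78. JAK2 read 10.47, 10.40 and 10.68 on the GFP arrays, 10.47, 10.63 and 10.56 on the Luc arrays, 9.37, 9.89 and 10.09 on the Jak2-9 arrays and 10.06, 10.04 and 9.78 on the Jak2-10 arrays. Each hairpin's arrays lay below all control arrays (exact two-sided permutation test, p = 0.0238, the smallest that 84 arrangements allow). The level was 63.1% of control over both hairpins (limma, Benjamini-Hochberg adjusted p = 0.00400), 59.3% with Jak2-9 (adjusted p = 0.00768) and 67.0% with Jak2-10, which did not pass the threshold of 0.05 (adjusted p = 0.0824). Jak2-9 replicate 1 stood apart: correlations within the Jak2-9 group went down to 0.986, against 0.995 or more in the other groups, and limma's array weights gave it 0.124, against 0.355 for Jak2-10 replicate 3 and 0.924 to 1.97 for the rest. Group medians and named genes with Jak2-9 are therefore given with it and then without it, the second value being the limma fit without that array.

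Promoter sequences are shown for 5 members of complexes I to IV that carry the known motifs. RefSeq (GRCh38.p14) gave a window from 250 bases before to 50 bases after the gene start for 68 members. The letters GCGCANGCG (an NRF1 core) were on either strand in 21 of these 68 windows, or 30.9%, against 12.3% of the 9593 windows of all genes tested and 18.8% of those of the brightest 20% of genes. The letters CCGGAAGT (an ETS core, the kind GABP binds) were in 12 windows, or 17.6%, against 6.61% and 10.2%. AAGATGGCG (a YY1 core) was in 8 windows, or 11.8%, against 3.4% and 5.17%. Overlapping matches of different motifs were counted for each. The first 3 windows below hold the NRF1 core and the others the ETS core, all in capitals, with the NDUFA9 match on the opposite strand and 4 matches in the SDHA window.
NDUFA3 (chr19:54102757-54102816, + strand): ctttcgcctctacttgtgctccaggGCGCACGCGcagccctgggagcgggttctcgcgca
NDUFA9 (chr12:4649010-4649069, + strand): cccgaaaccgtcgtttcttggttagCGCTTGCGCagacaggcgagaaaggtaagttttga
SDHA (chr5:218120-218319, + strand): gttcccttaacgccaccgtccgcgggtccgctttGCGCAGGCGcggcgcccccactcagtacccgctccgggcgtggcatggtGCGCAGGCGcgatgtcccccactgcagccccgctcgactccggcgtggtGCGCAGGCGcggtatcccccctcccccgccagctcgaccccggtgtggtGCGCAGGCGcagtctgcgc
UQCRQ (chr5:132866563-132866622, + strand): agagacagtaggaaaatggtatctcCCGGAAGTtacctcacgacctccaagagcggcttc
COX5B (chr2:97646000-97646059, + strand): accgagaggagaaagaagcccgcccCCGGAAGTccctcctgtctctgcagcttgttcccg

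These genes were bright: 71 of the 82 lay in the brightest 20% of all genes, and the median of their mean log2 intensities was 11.26, against 6.28 over all genes. The 4 members below every array median were the muscle isoforms COX6A2 and COX7A1 of complex IV, ATP5MC2P1 and the assembly factor NDUFAF5. The controls were tight. The median SD over 3 arrays was 0.06 in GFP and in Luc, 0.16 with Jak2-9 and 0.11 with Jak2-10, against 0.10, 0.10, 0.17 and 0.12 over all genes.

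Most members lay slightly higher with Jak2-9 than in the controls, and ATP5F1D alone rose past the threshold. ATP5F1D, the delta subunit in the central stalk of ATP synthase, rose 1.38-fold with Jak2-9 (95% interval 1.17 to 1.62; log2 fold change 0.46 ± 0.11, SE; adjusted p = 0.0358; 3 against 6 arrays). That is 1 of 82 members, or 1.22%, where 1.6% of all genes rose and 1.47% fell, so the share called was near that of all genes. With Jak2-10, and over both hairpins, no member passed.

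**Figure D1:**
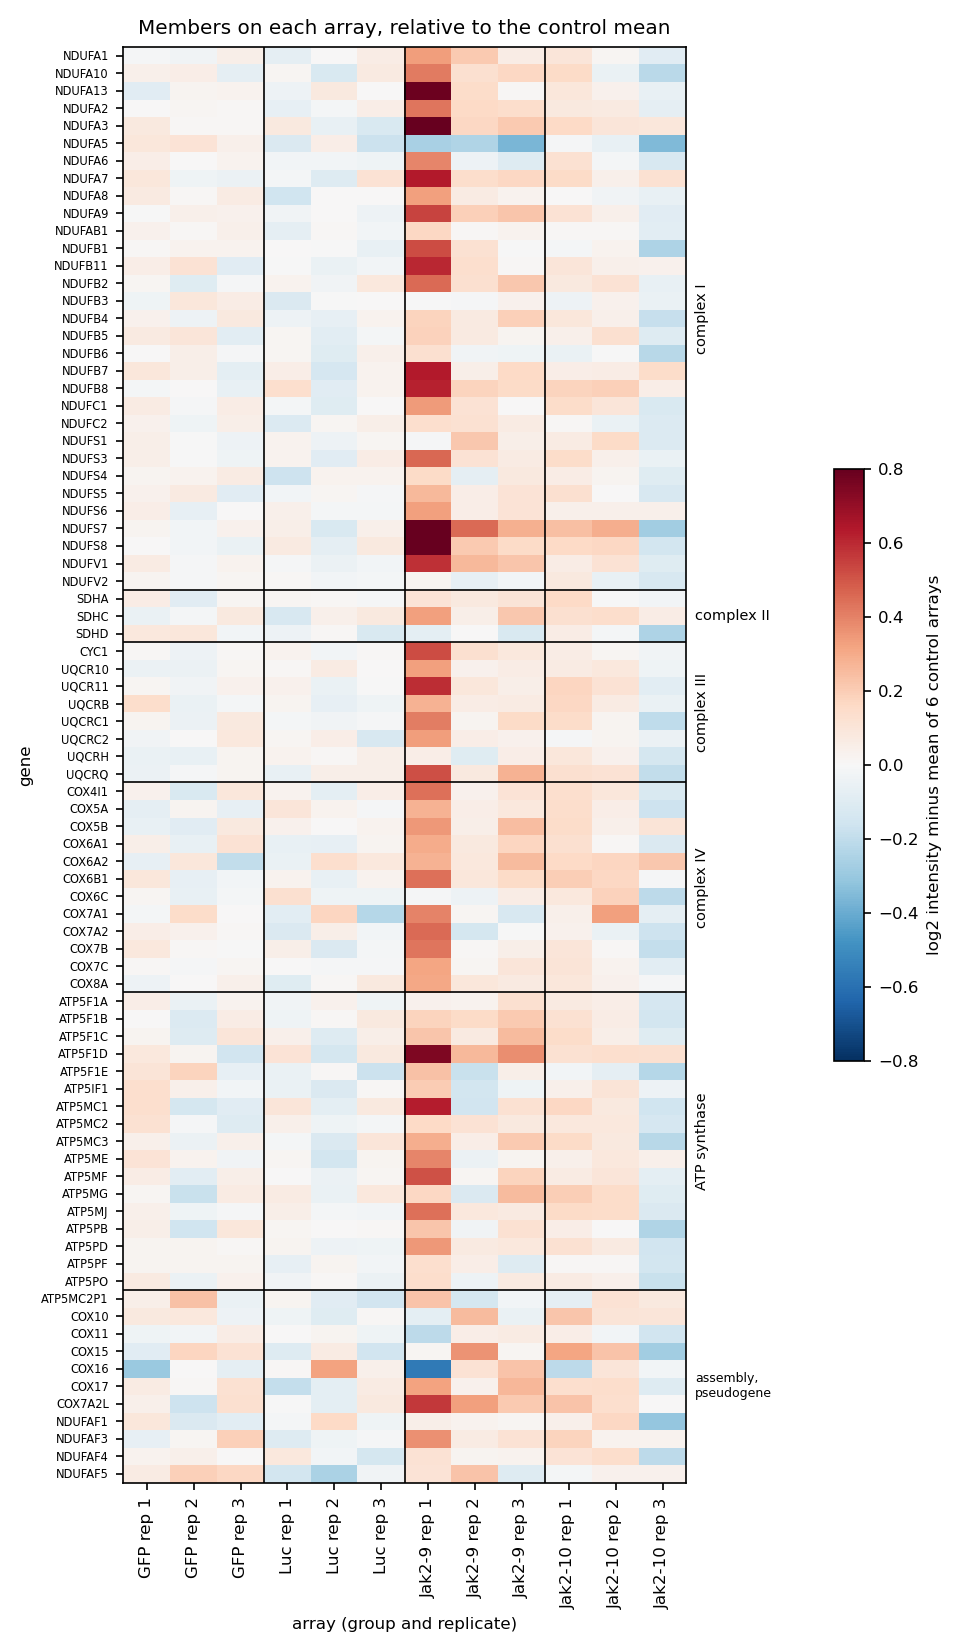
Heat map of the 82 members (rows, by complex) on the 12 arrays (columns), coloured by log2 intensity minus the mean of the 6 control arrays; colours saturate at a difference of 0.8. Jak2-9 replicate 1 was the highest array for 61 members and Jak2-10 replicate 3 the lowest for 44.

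ATP5F1D read 9.58, 9.52 and 9.34 on the GFP arrays, 9.60, 9.35 and 9.57 on the Luc arrays, 10.24, 9.75 and 9.87 on the Jak2-9 arrays and 9.61, 9.62 and 9.62 on the Jak2-10 arrays. All 6 knockdown arrays lay above all 6 control arrays, the Jak2-10 arrays by very little. The change was 0.13 ± 0.11 with Jak2-10 (not past the threshold) and 0.29 ± 0.09 over both hairpins (adjusted p = 0.128). A dimmer probe set of the gene gave 0.35 with Jak2-9, but replicate 1 stood highest and replicate 3 lay among the controls. That probe set read 7.16, 7.19 and 6.97 (GFP), 7.09, 6.85 and 7.01 (Luc), 7.80, 7.30 and 7.09 (Jak2-9) and 7.09, 7.15 and 7.06 (Jak2-10). Without Jak2-9 replicate 1 the change of the brightest probe set was 0.32 and no longer passed (adjusted p = 0.140). The call also ended without any single GFP or Luc array or without Jak2-10 replicate 1 or 2, with adjusted p-values from 0.0542 to 0.0874, and with quantile normalization, the mean of both probe sets, array weights (0.30) or a single control group. Over all 20 alternative settings its log2 fold change lay between 0.30 and 0.56 and its adjusted p between 0.0200 and 0.140.

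Over all 16 ATP synthase subunits, ATP5F1D included, the median log2 fold change with Jak2-9 was 0.15, with all above 0. Without Jak2-9 replicate 1 it was 0.08, with 12 of 16 above 0, and with Jak2-10 it was 0.01. In the catalytic head, ATP5F1A had 0.06 (0.08 without replicate 1) and ATP5F1B 0.18 (also 0.18 without it). The 3 genes that encode an identical mature subunit c, ATP5MC1, ATP5MC2 and ATP5MC3, had 0.20, 0.12 and 0.18, and -0.02, 0.10 and 0.13 without replicate 1, so the ATP5MC1 value came from that array. The stalk subunit ATP5PO had 0.06 (0.02 without replicate 1) and ATP5IF1, which blocks ATP hydrolysis by the enzyme, 0.01 (-0.09). None of these passed the test.

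ATP5F1C, the gamma subunit that turns inside the head, had 0.18 with Jak2-9 (0.16 without replicate 1), and its next 2 probe sets had 0.19 and 0.20. Its dimmest probe set went the other way. That probe set read 5.99, 5.90 and 5.54 (GFP), 6.46, 6.32 and 6.74 (Luc), 4.63, 4.52 and 4.48 (Jak2-9) and 4.83, 5.16 and 5.17 (Jak2-10). All 6 knockdown arrays lay below all 6 controls, by a mean of -1.62 with Jak2-9 and -1.11 with Jak2-10, mostly at intensities under the array medians. The probe set was singled out after its values were seen, and the difference was not tested.

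Complex I had a median of 0.20 with Jak2-9 over 31 subunits, of which 29 were above 0, and of 0.09 without replicate 1, with 27 above 0. The core subunits carry the flavin and iron-sulfur clusters. NDUFS7, which holds the last cluster before ubiquinone, read 8.83, 8.79 and 8.84 (GFP), 8.85, 8.68 and 8.85 (Luc), 9.64, 9.26 and 9.09 (Jak2-9) and 9.05, 9.10 and 8.53 (Jak2-10). The Jak2-9 arrays lay above all controls, while the Jak2-10 arrays lay on both sides of them. Its log2 fold change was 0.52 ± 0.13 with Jak2-9 (adjusted p = 0.0502, just outside the threshold), 0.37 without Jak2-9 replicate 1 (adjusted p = 0.213) and 0.08 ± 0.13 with Jak2-10. It passed under 9 of 20 alternative settings.

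NDUFV1, which binds NADH and the flavin, read 10.92, 10.84 and 10.88 (GFP), 10.85, 10.81 and 10.83 (Luc), 11.44, 11.11 and 11.08 (Jak2-9) and 10.91, 10.97 and 10.76 (Jak2-10). Again the Jak2-9 arrays did not overlap the controls and the Jak2-10 arrays did. The change with Jak2-9 was 0.35 ± 0.09 (adjusted p = 0.0529), or 0.24 without replicate 1, and it passed under 6 of 20 alternatives. NDUFS8, beside NDUFS7 near the ubiquinone site, had 0.40 (adjusted p = 0.0974) and NDUFS3 0.21, or 0.18 and 0.09 without replicate 1. NDUFS1 had 0.08 and NDUFV2, the partner of NDUFV1, -0.02, or 0.13 and -0.04 without it, so the core subunits were not uniform. Among accessory subunits, NDUFA9 had 0.32 (adjusted p = 0.0654), or 0.20 without replicate 1. NDUFA3 had 0.40 (adjusted p = 0.0797) and NDUFA13, also known as GRIM-19 and described as a partner of STAT3, 0.31, or 0.19 and 0.08 without replicate 1; both were picked out after their values were seen.

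NDUFA5, an accessory subunit of the peripheral arm, had the lowest log2 fold change of all members with Jak2-9. It read 9.45, 9.47 and 9.40 (GFP), 9.24, 9.41 and 9.19 (Luc), 9.10, 9.12 and 9.00 (Jak2-9) and 9.35, 9.30 and 9.01 (Jak2-10). All Jak2-9 arrays lay below all controls, and Jak2-10 overlapped them. The log2 fold change was -0.29 ± 0.09 with Jak2-9 (adjusted p = 0.0884), -0.30 without replicate 1, and -0.21 ± 0.08 over both hairpins (adjusted p = 0.187). A second, much dimmer probe set gave -0.17 with Jak2-9, at intensities under the array medians. It read 4.29, 4.54 and 4.43 (GFP), 4.26, 4.71 and 5.08 (Luc), 4.36, 4.41 and 4.38 (Jak2-9) and 4.10, 4.03 and 4.44 (Jak2-10). Its Jak2-9 values thus lay within those of the GFP arrays.

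**Figure D2:**
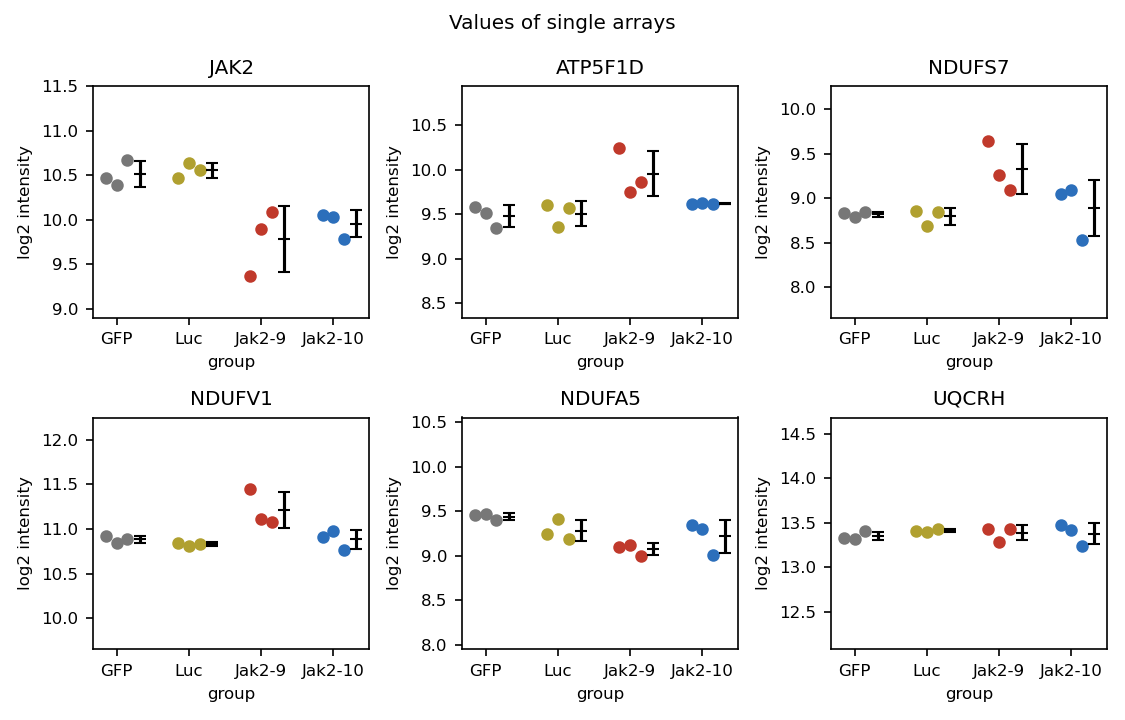
Log2 intensity on each array (points) for JAK2 and 5 members, with the group mean and SD over 3 arrays beside each group; every panel spans the same height on the log2 axis. JAK2 lay lower and ATP5F1D higher in all 6 knockdown arrays than in the 6 control arrays, NDUFS7 and NDUFV1 with Jak2-9 lay above all control arrays, NDUFA5 with Jak2-9 below them, and UQCRH differed little between groups.

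In complex II, SDHA, the flavoprotein that oxidises succinate, had 0.10 ± 0.08 with Jak2-9, and the membrane anchors SDHC and SDHD had 0.20 and -0.07. Without replicate 1 these were 0.09, 0.13 and -0.06. The 4 SDHC probe sets did not give 1 direction: from the brightest to the dimmest they had 0.20, 0.25, 0.03 and -0.18. The complex III median was 0.17 over 8 subunits, all above 0, but 0.07 without replicate 1, with 7 above 0. CYC1, which hands electrons to cytochrome c, had 0.24 ± 0.10 (adjusted p = 0.143), and the core proteins UQCRC1 and UQCRC2 had 0.20 and 0.14. Without replicate 1 these were 0.11, 0.09 and 0.04. UQCR11, a small subunit, had the largest change of complex III over both hairpins. It read 10.92, 10.87 and 10.94 (GFP), 10.93, 10.85 and 10.90 (Luc), 11.49, 10.99 and 10.95 (Jak2-9) and 11.07, 11.02 and 10.82 (Jak2-10). Its change with Jak2-9 was 0.07 without replicate 1. UQCRH, the hinge protein, had 0.00 with Jak2-9 (-0.02 without replicate 1) and -0.01 with Jak2-10, with 95% intervals from -0.17 to 0.17 and from -0.18 to 0.17.

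The complex IV median with Jak2-9 was 0.16 over 12 subunits, all above 0, but 0.07 without replicate 1, with 10 above 0. COX4I1, COX5A and COX5B had 0.19, 0.14 and 0.21, or 0.07, 0.07 and 0.15 without it. The dimmest COX4I1 probe set went the other way, with -0.45, at intensities under the array medians. Of the isoform pairs, COX6A1, the form found in most tissues, had 0.18 and its muscle form COX6A2 0.21, or 0.13 and 0.17 without replicate 1. COX7A2 and the muscle form COX7A1 both had 0.10, but -0.07 and -0.06 without it. COX6A2 and COX7A1 are dim here, so their differences rest on intensities below the array medians. COX7A2L, a relative of subunit 7A that helps complexes III and IV to associate, had 0.37 ± 0.10 (adjusted p = 0.0568), 0.27 without replicate 1. The haem A synthesis enzyme COX10 had 0.04 with Jak2-9 and the assembly factor COX16 -0.07, or 0.10 and 0.17 without replicate 1, and neither passed the test.

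COX11, a copper protein of complex IV assembly that was picked out after its values were seen, differed between probe sets. Its second brightest read 8.41, 8.55 and 8.58 (GFP), 8.63, 8.70 and 8.57 (Luc), 8.13, 8.36 and 8.30 (Jak2-9) and 8.35, 8.21 and 8.38 (Jak2-10). All 6 knockdown arrays lay below all 6 controls, by a mean of -0.31 with Jak2-9 and -0.26 with Jak2-10, a difference that was not tested. The brightest probe set, which stood for the gene, had -0.03 with Jak2-9, or 0.06 without replicate 1.

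**Figure D3:**
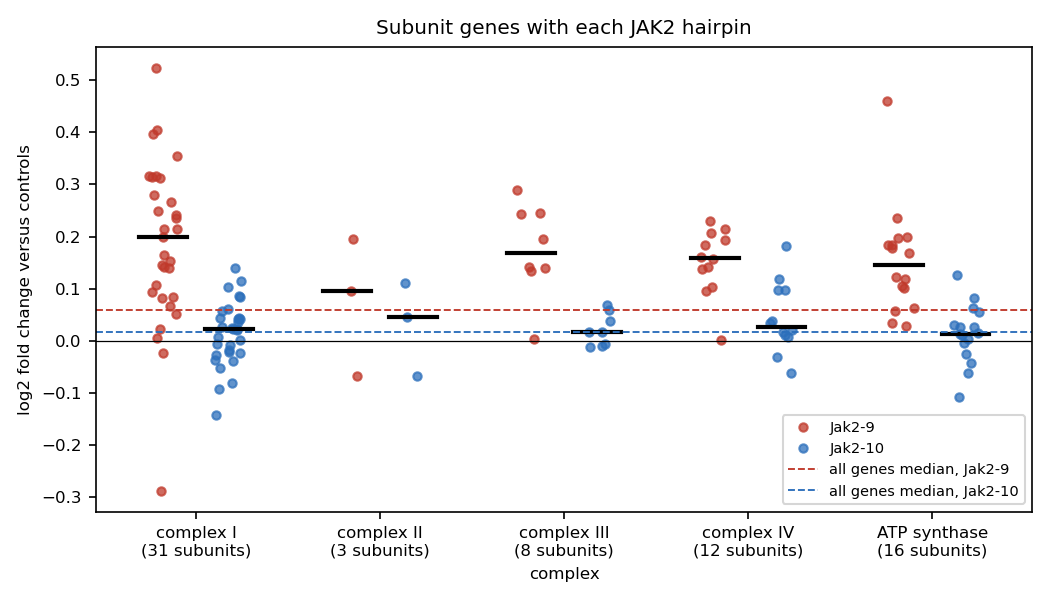
Log2 fold change against the controls of the 70 subunit genes with Jak2-9 (red) and Jak2-10 (blue), by complex; black bars are medians and dashed lines the medians of all genes. The Jak2-9 medians lie between 0.10 and 0.20 and the Jak2-10 medians between 0.01 and 0.05.

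Counted without the adjusted threshold, 77 of 82 members (93.9%) were above 0 with Jak2-9, against 63.7% of all genes, and 26 (31.7%) were higher at an unadjusted p under 0.05, against 17% of all genes, with NDUFA5 the only member lower (all genes 7.22%). The median over the 71 subunits and the inhibitor was 0.16, against 0.06 over all genes. The 3 Jak2-9 arrays lay above all 6 controls for 23 members (28%), where 9.41% of all genes did so, and below them for NDUFA5 only (3.8% of all genes). Of those 23, complex I held 14, ATP synthase 4, complex III 3, and complexes II and IV 1 each. Complex I is also the largest of the complexes here, with 31 of the 70 subunits. These counts describe genes chosen by symbol whose arrays and normalization are shared, and they carry no test.

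Without Jak2-9 replicate 1 the median was 0.08, against 0.04 over all genes. No member passed the adjusted threshold, and 6 (7.32%) were higher at an unadjusted p under 0.05, against 8.32% of all genes. Still 68 members (82.9%) were above 0, against 62.3% of all genes. By array, the median deviation from the control mean was 0.33, 0.06 and 0.08 on Jak2-9 replicates 1, 2 and 3, and 0.09, 0.04 and -0.10 on the Jak2-10 replicates, with the controls between -0.02 and 0.03. So the Jak2-9 difference in this median came mostly from replicate 1, and the remaining 2 arrays lay in the range of the Jak2-10 arrays. By complex this range was passed by complex I on Jak2-9 replicate 2, at 0.124 against 0.078, 0.041 and -0.095 with Jak2-10. ATP synthase on Jak2-9 replicate 3 also passed it, at 0.122 against 0.103, 0.074 and -0.139. Complexes II, III and IV lay within it on both arrays.

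**Figure D4:**
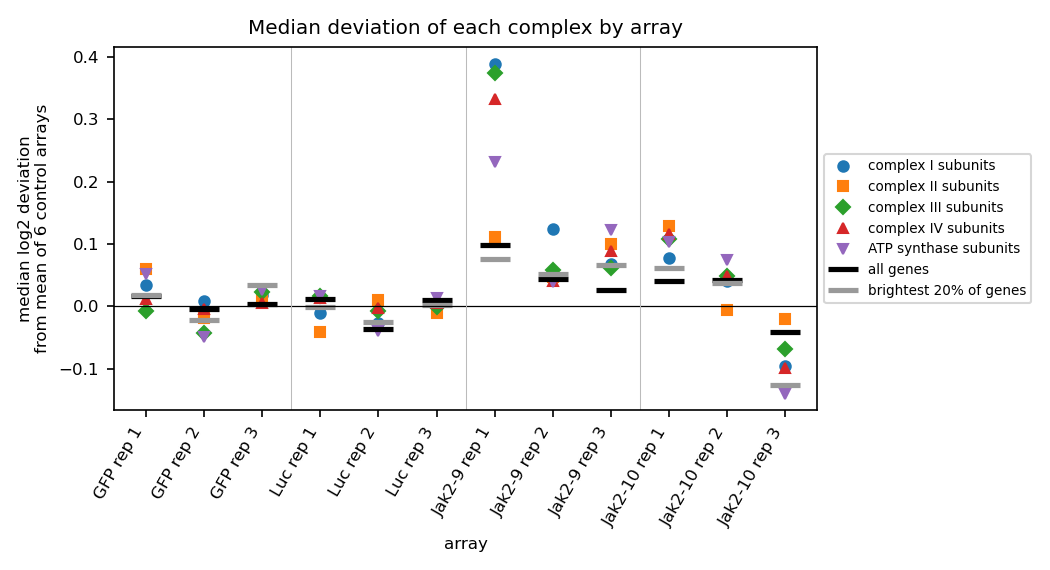
Median log2 deviation from the mean of the 6 control arrays, by array, for the subunits of each complex (symbols), all genes (black bars) and the brightest 20% of genes (grey bars). On Jak2-9 replicate 1 complexes I, III and IV and ATP synthase lie at 0.23 to 0.39, complex II at 0.11, and all genes at 0.10.

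On Jak2-9 replicate 1, 61 members (74.4%) had their highest value of the 12 arrays, against 36.2% of all genes. Against the mean of the other Jak2-9 arrays it was higher for 72 members (87.8%; all genes 59.3%), by a median of 0.25, and the 71 members in the brightest 20% had 0.27 where all genes that bright had 0.03. By complex the median was 0.28 for complex I, 0.02 for II, 0.31 for III, 0.24 for IV and 0.17 for ATP synthase, and 0.03 for the 10 assembly factors. It was also the array with the lowest JAK2 value. The 3′ minus 5′ difference of probe sets, a sign of RNA integrity, was higher on this array than on the 11 others for both genes measured: for GAPDH 0.09, against -0.05 and -0.02 on Jak2-9 replicates 2 and 3 and -0.13 to -0.00 elsewhere, and for ACTB 0.42, against 0.13 and 0.15 and 0.13 to 0.38. Jak2-10 replicate 3 was the lowest array for 44 members. The part of JAK2 level and RNA quality in these differences was not tested.

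**Figure D5:**
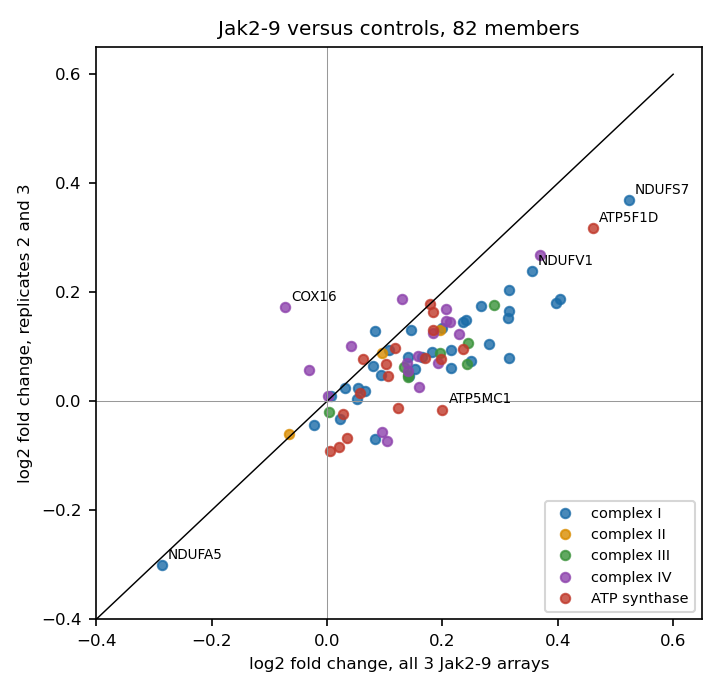
Log2 fold change of each of the 82 members with Jak2-9 from all 3 arrays (horizontal) and from replicates 2 and 3 only (vertical), coloured by complex; the line marks equal values. Most members lie below the line, ATP5F1D goes from 0.46 to 0.32 and NDUFS7 from 0.52 to 0.37, and NDUFA5 is about equal in both.

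With all 3 Jak2-10 arrays in the fit, the members were close to the controls. No member passed (limma adjusted p; all genes 0.0419% higher and 0.645% lower), and none had an unadjusted p under 0.05, against 2.65% of all genes higher and 3.11% lower. The median was 0.02, as over all genes, and 56 members (68.3%) were above 0, against 56.6%. The 95% interval of every member lay between -0.5 and 0.5 on the log2 scale, so changes beyond 1.41-fold in either direction lie outside all 82 intervals. The 3 arrays lay above all controls for ATP5F1D, NDUFA3, COX10 and COX6A2, 4.88% of the members against 2.68% of all genes, and below them for none (all genes 2.6%). COX6A2 had 0.18 ± 0.09 and COX10, a haem A synthesis enzyme, 0.14 ± 0.09. The median depended on Jak2-10 replicate 3, the array with the second lowest weight. Without it the Jak2-10 median over the 71 subunits and the inhibitor was 0.07, against 0.08 for Jak2-9 without its replicate 1. The median of Jak2-10 minus Jak2-9 was -0.15 with all arrays and -0.08 without Jak2-10 replicate 3.

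The hairpins themselves did not differ past the threshold for any member or any gene (0% called in limma). At an unadjusted p under 0.05, 10 members (12.2%) were lower with Jak2-10 than with Jak2-9, against 7.33% of all genes, and none higher (2.5%). The lowest p-values were those of NDUFV1 at -0.33 (95% interval -0.56 to -0.10), NDUFS7 at -0.44 (-0.77 to -0.11) and NDUFA9 at -0.29 (-0.52 to -0.07), each with adjusted p = 0.499. The Jak2-9 arrays lay above all Jak2-10 arrays for 13 members (15.9%; all genes 8.74%) and below them for none (2.98%), and 7 members were higher with Jak2-10 by any amount (8.54%; all genes 40.5%). Without Jak2-9 replicate 1 only NDUFV1 of the 82 was lower at an unadjusted p under 0.05, against 287 of all 11940 genes. None was higher (all genes 1.83%). Both hairpins were set against the same control arrays, so the comparisons with the controls are not independent.

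Over both hairpins 0 of 82 members passed (limma adjusted p; all genes 0.436% higher and 1.39% lower), and 13 were higher (15.9%; all genes 10.5%) and 1 lower (NDUFA5; all genes 5.72%) at an unadjusted p under 0.05. Without Jak2-9 replicate 1, 7 members were higher (8.54%), against 8.77% of all genes. The median was 0.09, against 0.04 over all genes, and 0.05 without Jak2-9 replicate 1, and 71 members were above 0 (86.6%; all genes 63.5%). All 6 knockdown arrays lay above all controls for ATP5F1D and NDUFA3 (2.44%; all genes 1.2%) and below them for none (1.51%). The control groups did not differ in any member (limma; 0% of all genes called): the median of Luc minus GFP was -0.02, with 23 members above 0 (28%; all genes 44.8%), and the assembly factor NDUFAF5, with -0.28 ± 0.10, was the only member at an unadjusted p under 0.05 (all genes 0.905% lower and 1.01% higher).

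Other mitochondrial genes were counted in the same fits. Of 37 further assembly factors 21 were measured, with a Jak2-9 median of 0.11, or 0.03 without replicate 1. With Jak2-9, 2 of the 21 passed the threshold higher and 1 lower, against 1.6% and 1.47% of all genes. Over both hairpins 1 passed lower (all genes 1.39%). SCO2, a copper carrier for complex IV, read 7.20, 7.54 and 7.48 (GFP), 7.20, 7.30 and 7.13 (Luc), 8.43, 7.69 and 7.66 (Jak2-9) and 7.52, 7.59 and 7.23 (Jak2-10), and rose by 0.62 ± 0.15 with Jak2-9 (adjusted p = 0.0441). ECSIT, a complex I assembly factor, rose by 0.56 ± 0.14 (adjusted p = 0.0451). For both, the call was lost without Jak2-9 replicate 1 (0.37 and 0.34; adjusted p = 0.150 and 0.163) and without any single control or Jak2-10 array. It was also lost with quantile normalization or a single control group, and for ECSIT with array weights, with adjusted p-values up to 0.176 for SCO2 and 0.136 for ECSIT.

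CMC1, which assists complex IV assembly, fell. It read 5.04, 5.22 and 4.97 (GFP), 5.01, 5.10 and 5.45 (Luc), 4.69, 4.65 and 4.69 (Jak2-9) and 4.84, 4.84 and 4.66 (Jak2-10), with all 6 knockdown arrays below all 6 controls, at intensities under the array medians. The change was -0.40 ± 0.08 over both hairpins (adjusted p = 0.0206), -0.45 ± 0.10 with Jak2-9 (adjusted p = 0.0306) and -0.35 ± 0.10 with Jak2-10 (adjusted p = 0.296). Over both hairpins the call was lost without GFP replicate 1 or 2 or Jak2-10 replicate 3 (adjusted p = 0.0556, 0.0719 and 0.0624), and with Jak2-9 without GFP replicate 1 or 2, Luc replicate 2 or Jak2-9 replicate 1 (0.0621, 0.0729, 0.0545 and 0.0688). Both calls were also lost with GFP as the only control, at -0.35 (adjusted p = 0.241) and -0.40 (adjusted p = 0.140).

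None of the 15 measured genes of pyruvate dehydrogenase and the citric acid cycle passed in any comparison, and their Jak2-9 median was 0.15, or 0.09 without replicate 1. IDH3G and IDH3B, subunits of the NAD-dependent isocitrate dehydrogenase, had 0.39 (adjusted p = 0.0502) and 0.45 (adjusted p = 0.0573), or 0.26 and 0.27 without replicate 1. At an unadjusted p under 0.05, 4 of the 15 were higher (all genes 17%), and 3 without replicate 1 (all genes 8.32%). Of the 14 electron carrier and coenzyme Q genes none passed either (median 0.12, or 0.06 without replicate 1). Unadjusted, 4 of these 14 were higher with replicate 1 and 4 without it (all genes 17% and 8.32%). COQ8A had 0.42 and ETFB 0.37, or 0.26 and 0.20 without replicate 1. The 18 genes of mitochondrial biogenesis and mitochondrial DNA expression had a median of 0.03 with Jak2-9, with 0 past the threshold. Of these, 2 were higher and 3 lower unadjusted (all genes 17% and 7.22%). Their median was 0.00 without replicate 1, with 0 higher (all genes 8.32%) and 1 lower (508 of all 11940 genes). POLG2, the accessory subunit of the mitochondrial DNA polymerase, had -0.47 ± 0.15 (adjusted p = 0.0833), and LRPPRC, which stabilises mitochondrial mRNAs, -0.26, or -0.29 and -0.13 without replicate 1. The 6 ADP, ATP and phosphate carrier genes had a median of 0.05 (0.02 without replicate 1), with 0 past either threshold. SLC25A5, an ADP/ATP carrier, had 0.16 and VDAC3 -0.08, or 0.09 and -0.10 without replicate 1.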

How the data were processed

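RNA from 4 groups of 3 arrays (20 ng of total RNA each, amplified with biotin labelling per the labels' protocols) was measured on 1-colour arrays. The deposited table holds linear intensity values per probe set, made by RMA per the submitters' processing notes, which name no version. Values were taken as log2. Control probe sets (524) and probe sets with several symbols (125) or none (2866) were left out, which kept 19415 of 22930, and the brightest probe set by mean over 12 arrays stood for each of 11940 genes. limma 3.58.1 (R 4.3.3) fitted 4 group means over 12 arrays, with Benjamini-Hochberg adjustment over all genes and a threshold of 0.05 for 5 contrasts. The fit was also run on simulated data with independent noise between arrays. Recovery was checked only at changes larger than those of any member. The simulation held no shift shared by many genes on a single array, so it does not bear on the member calls. Precision is set by having 3 arrays a group.

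Named genes are JAK2; members past the threshold; the 3 members with the lowest p in each contrast; the extremes of each complex; core catalytic members; isoform families; and, from each companion list, up to 3 genes past the threshold or else the 2 with the lowest p. ATP5F1E, COX6B1, COX7B and COX8A also met this rule but are not described. NDUFA3, NDUFA13, COX11 and the promoters shown were chosen outside this rule. Members, lists and tests were chosen with earlier results of these data known. Members of a list are described by counts and medians, with no list test. Alternatives were another scaling or normalization, a filter on dim genes, the mean of all probe sets, array weights, single controls, a replicate block and leaving out each array. Motifs were searched with Python 3.11.15.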

Additional observations from a re-analysis of the deposited data

How the results depend on the processing

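The number of members past the threshold with Jak2-9, 1 in the fit reported, was unstable: 3 with the replicate block, 2 with median centring, 2 with quantile normalization (NDUFS7 higher, NDUFA5 lower), 3 with the dimmest 30% of genes left out, 3 with the mean of all probe sets, 2 with array weights (NDUFS7, NDUFV1), and 0 with GFP or Luc as the only control. Leaving out single arrays gave 0 to 9: 9 without Jak2-9 replicate 3, 6 without Jak2-9 replicate 2, 2 without Jak2-10 replicate 3 and 0 without any other. Over both hairpins array weights gave 1 (NDUFS7), where 269 of all genes were called higher and 271 lower, and all other settings gave 0. With Jak2-10, between the hairpins and between the controls the count was 0 under every setting run. Over all genes the Jak2-9 calls were 191 higher and 176 lower, 152 and 214 after median centring, and 126 and 240 after quantile normalization.

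The member median with Jak2-9 lay between 0.08 and 0.21 without single arrays and between 0.09 and 0.17 under the other settings. The corresponding ranges without single arrays were 0.05 to 0.13 over both hairpins, -0.01 to 0.07 with Jak2-10, -0.19 to -0.05 for Jak2-10 minus Jak2-9 and -0.03 to -0.01 for Luc minus GFP; array weights moved the Jak2-10 minus Jak2-9 median to -0.023. JAK2 was between -0.74 and -0.56 without single arrays. NDUFA5 turned from -0.16 to 0.052 in Luc minus GFP with the mean of all probe sets. The causes were not tested. Same-numbered arrays of different groups correlated between -0.118 and 0.181 in their deviations from group means, so the numbers were not taken as pairs; the block moved the Jak2-9 count to 3 and no other count of members. Single-control settings do not apply to Luc minus GFP and were not run for Jak2-10 minus Jak2-9. At 3 arrays a group the median half-width of a member's 95% interval was 0.20 against the controls, which limits what small differences can show.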
